A study of Homo sapiens with 6 samples.

Results

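The mucin genes of TFK1 cells were described from RNA-seq of 6 libraries. TFK1 is a cancer cell line from a carcinoma of the extrahepatic bile duct, and all libraries came from TFK1 cells without further treatment. In 3 libraries (oeNC) the cells carried the negative control lentivirus, and in 3 libraries (oeSTUB1) they stably overexpressed STUB1, a chaperone-associated E3 ubiquitin ligase. Both were lentiviral lines kept as puromycin-selected populations, so vector and selection were common to the groups. The labels do not say whether a group came from several transduced populations. Any other difference between the lines thus cannot be told apart from an effect of STUB1. The mucins were chosen by symbol, as 10 named genes (MUC1, MUC2, MUC4, MUC5AC, MUC5B, MUC6, MUC13, MUC15, MUC16 and MUC20) of the 23569 genes in the table of FPKM values. FPKM scales the sequenced fragments of a gene to its length and to the depth of the library, so levels can be compared between genes. Of the 10 mucins, 9 had a row, 6 passed the filter of a mean of 0.1 FPKM over the libraries and were tested, 3 lay under it, and MUC15 was not analysed here.

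Mucins are proteins with long repeats rich in serine and threonine, on which O-linked sugar chains are built in the Golgi. The gel-forming mucins MUC2, MUC5AC, MUC5B and MUC6 are secreted, crosslink through disulfide bonds and give mucus its viscosity. The membrane-bound mucins MUC1, MUC4, MUC13, MUC15, MUC16 and MUC20 stay on the apical surface, where they form a barrier and can be cleaved off, and several have a tail that takes part in signalling. Healthy bile ducts make little gel-forming mucin, whereas bile duct tumours often make MUC1 and MUC5AC.

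The library totals recovered from the FPKM steps lay between 33106564 and 36744521 fragments. STUB1 itself was at 32.9, 33.0 and 30.9 FPKM in oeNC and at 61.4, 75.0 and 61.9 FPKM in oeSTUB1, and the groups did not overlap (log2 fold change 1.03, adjusted p = 0.000642 by limma). Of the biliary epithelial markers, KRT7, KRT8 and KRT18 were among the abundant genes in every library, while KRT19, a keratin of bile duct cells, was between 0.374 and 0.529 FPKM in oeNC and between 2.51 and 3.41 FPKM in oeSTUB1. Over the 9 biliary markers 1 was called higher and 5 lower, beside 7.01% and 6.59% of all genes tested, and their summed level ran from 7432 to 8008 FPKM in oeNC and from 4734 to 6273 FPKM in oeSTUB1. Among markers of other cell types, ALB, CD3E, VWF, CDH5 and PDGFRB lay under the filter of 0.1 FPKM, whereas CD68 and CD14 were measured at 19.1 to 27.7 and 4.33 to 6.09 FPKM, and COL1A1, LUM, LYZ, PTPRC, PECAM1 and SERPINA1 also passed it. The summed level of the 7 fibroblast markers ran from 1.28 to 2.33 FPKM in oeNC and from 2.12 to 4.03 FPKM in oeSTUB1, mostly COL1A1, and that of the 6 immune markers from 32.3 to 34.7 and from 25.8 to 26.5 FPKM, mostly CD68. Of the 2 fibroblast, 4 immune, 1 endothelial and 1 hepatocyte markers tested, CD68 alone was called (lower). The part of these shifts in the mucin values was not tested. In bulk RNA, fewer cells that express a mucin and less mucin RNA per cell cannot be told apart. Nothing in the labels says that the 3 libraries of a group came from separate cultures, so the p-values measure only the spread between these libraries, which may be technical.

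TFK1 cells held mainly MUC5B, with MUC13, MUC5AC, MUC1 and MUC16 below it and almost no MUC2, MUC4 or MUC6. In oeNC the order by mean level was MUC5B at 48.5 ± 7.88 FPKM (SD, n = 3), MUC13 at 7.17 ± 0.126, MUC5AC at 5.08 ± 0.946, MUC16 at 1.48 ± 0.262, MUC1 at 1.16 ± 0.116 and MUC20 at 0.456 ± 0.0940 FPKM. The ranges of MUC16 and MUC1 overlapped in oeNC, and the other neighbours in that order did not. In oeSTUB1 the order was MUC5B at 24.9 ± 15.8, MUC13 at 9.24 ± 1.62, MUC5AC at 5.02 ± 3.31, MUC1 at 2.01 ± 0.105, MUC16 at 0.531 ± 0.373 and MUC20 at 0.384 ± 0.144 FPKM. MUC1 and MUC16 thus changed places, and there the ranges of MUC5B and MUC13, MUC13 and MUC5AC, MUC5AC and MUC1, and MUC16 and MUC20 overlapped.

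**Figure D1:**
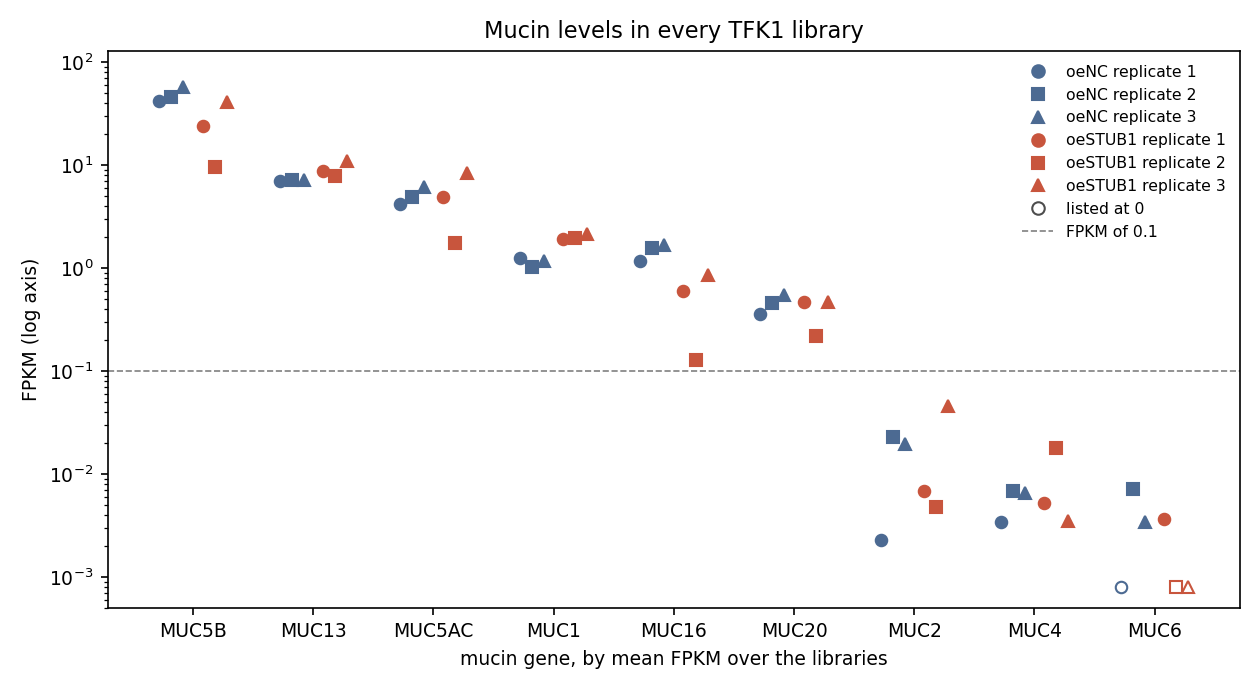
FPKM of the 9 listed mucins in each of the 6 libraries on a log axis, with oeNC in blue and oeSTUB1 in red and a marker shape for each replicate number; open markers at the bottom stand for a value listed at 0, and the dashed line is the filter of 0.1 FPKM. MUC5B lies highest in every library, MUC1 is higher in all oeSTUB1 libraries, and the red square of oeSTUB1 replicate 2 is the lowest point for MUC5B, MUC5AC, MUC16 and MUC20.

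In the comparison of oeSTUB1 with oeNC, which asks what a higher STUB1 level does to the RNA of these cells, 1 of the 6 tested mucins was called higher (MUC1) and 0 were called lower at an adjusted p under 0.05. Over all 15353 genes tested, 13.6% were called, 7.01% higher and 6.59% lower. At an unadjusted p under 0.05, 2 mucins were higher (MUC1 and MUC13) and 2 lower (MUC5B and MUC16), and limma-voom on the whole fragments also called 1 higher and 0 lower. The values of the groups did not overlap for 4 of the 6 mucins (MUC1 and MUC13 above, MUC5B and MUC16 below), against 38.8% of all genes tested. The median log2 fold change of the 6 mucins was -0.25, beside 0.02 over all genes. Without oeSTUB1 replicate 2, 3 mucins were called, MUC1 and MUC13 higher and MUC16 lower, and without oeSTUB1 replicate 3 also 3, MUC1 higher and MUC5B and MUC16 lower. Those fits called 26.8% and 10.5% of all genes. Without oeNC replicate 1, 2 or 3 or oeSTUB1 replicate 1, MUC1 alone was called, beside 6.21%, 6.05%, 6.77% and 9.17% of all genes.

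MUC5B, the main gel-forming mucin of airways and gallbladder, stood at 41.8, 46.4 and 57.2 FPKM in the oeNC libraries 1, 2 and 3 (25985, 28809 and 37619 fragments). In oeSTUB1 it stood at 23.9, 9.64 and 41.1 FPKM (14763, 5716 and 25181 fragments). Every oeSTUB1 value lay below every oeNC value, but the oeSTUB1 libraries spread widely, from close to the oeNC range in replicate 3 to far below it in replicate 2. The log2 fold change was -1.18 (95% interval -2.22 to -0.14, SE 0.450) and missed the threshold (adjusted p = 0.127). Leaving out oeSTUB1 replicate 2 gave -0.61 (adjusted p = 0.0806), and leaving out oeSTUB1 replicate 3 gave -1.65 (adjusted p = 0.0315).

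Within the whole transcriptome, MUC5B ranked 1244, 1103 and 880 by FPKM in oeNC and 2290, 4955 and 1287 in oeSTUB1. It took 0.0749%, 0.0831% and 0.102% of all fragments of the oeNC libraries and 0.0428%, 0.0173% and 0.0737% of those of oeSTUB1. MUC5B lies on the plus strand of chromosome 11 (chr11:1223066-1262172, GRCh38), where the annotation also places the antisense gene MUC5B-AS1 and the microRNA MIR6744 inside it. The strand setting of the counting is not given in the sources used here, so reads of MUC5B and its antisense partner could not be told apart.

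MUC5AC, the gel-forming mucin of gastric surface cells and a frequent product of bile duct tumours, lies just before MUC5B on the same strand (chr11:1157953-1201138). It stood at 4.25, 4.88 and 6.11 FPKM in oeNC and at 4.94, 1.74 and 8.36 FPKM in oeSTUB1 (2572 to 3916 and 1005 to 4987 fragments). The oeSTUB1 group held both the lowest and the highest of the 6 values. The log2 fold change was -0.26 (95% interval -1.38 to 0.86, adjusted p = 0.76), and without oeSTUB1 replicate 2 it was 0.35.

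Although MUC5B and MUC5AC each varied widely, their ratio within a library was steady in both groups. The FPKM of MUC5B was 9.84, 9.51 and 9.36 times that of MUC5AC in oeNC and 4.84, 5.54 and 4.92 times in oeSTUB1. The groups did not overlap, and the geometric means were 9.57 and 5.09. The log2 difference was -0.91, against an SD of 0.037 among the oeNC and 0.11 among the oeSTUB1 log2 ratios. A two-sided exact permutation test gave p = 0.1, the smallest that 3 libraries against 3 allow. This ratio was chosen after the values of both genes had been seen. Library depth cancels from such a ratio, and the recovered lengths are 17911 bases for MUC5B and 17448 for MUC5AC. The cause of the shift in the ratio was not tested.

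**Figure D2:**
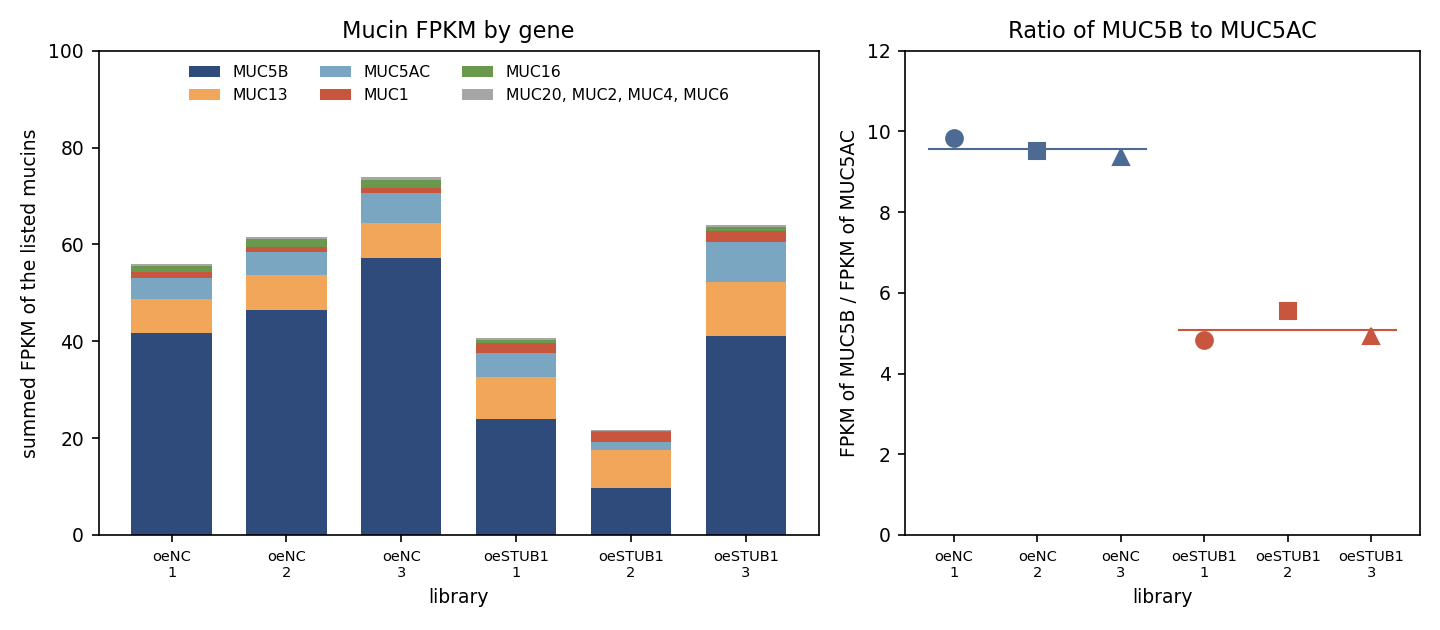
Left, the summed FPKM of the 9 listed mucins in each library, stacked by gene; right, the FPKM of MUC5B divided by that of MUC5AC in each library, with a line at the geometric mean of each group of 3. MUC5B makes up 74.8% to 77.3% of the sum in oeNC and 44.6% to 64.2% in oeSTUB1, and the ratio lies between 9.36 and 9.84 for oeNC and between 4.84 and 5.54 for oeSTUB1.

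The sum over the 9 listed mucins was 55.9, 61.6 and 74.0 FPKM in oeNC and 40.7, 21.6 and 64.1 FPKM in oeSTUB1, so the totals of the groups overlapped. MUC5B made up 74.8%, 75.3% and 77.3% of the sum in oeNC and 58.8%, 44.6% and 64.2% in oeSTUB1. MUC13 came next in every library, with 9.83% to 12.6% in oeNC and 17.2% to 36.6% in oeSTUB1. MUC1 made up 1.61% to 2.24% in oeNC and 3.33% to 9.11% in oeSTUB1, while MUC16 made up 2.11% to 2.57% and 0.591% to 1.48%.

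The other gel-forming mucins of the chromosome 11 cluster were close to silent. MUC2, the mucin of intestinal goblet cells (chr11:1074875-1110511, plus strand), had 1, 10 and 9 fragments in oeNC and 3, 2 and 20 in oeSTUB1. MUC6, the mucin of gastric glands (chr11:1012821-1036706, minus strand), had 0, 2 and 1 fragments in oeNC and 1, 0 and 0 in oeSTUB1. MUC2 and MUC6 lay under the filter of 0.1 FPKM and were not tested, so no log2 fold change is given for them. In every library MUC6 had at most 3 fragments. At these depths 3 fragments of MUC6 correspond to a floor between 0.0102 and 0.0113 FPKM. This floor covers counting error only, while the 95% intervals of the log2 fold changes come from the spread between libraries. The level of MUC2 was 0.00228, 0.0228 and 0.0194 FPKM in oeNC, far below the MUC5B of the same cluster, and its groups overlapped.

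MUC1, the membrane mucin whose tail binds beta-catenin and receptor tyrosine kinases, rose in oeSTUB1. It stood at 1.25, 1.03 and 1.19 FPKM in oeNC (177, 145 and 178 fragments) and at 1.94, 1.97 and 2.13 FPKM in oeSTUB1 (272, 266 and 297 fragments). The oeSTUB1 values lay close together and all above oeNC, with a ratio of group means of 1.74. The log2 fold change was 0.75 (95% interval 0.46 to 1.05, SE 0.127, adjusted p = 0.00778). It passed the threshold in all 14 alternatives run, in which the log2 fold change lay between 0.48 and 0.81 and the adjusted p between 0.00466 and 0.0442. MUC1 lies on the minus strand of chromosome 1 (chr1:155185824-155192916), where the annotation places a further gene, AL713999.1, on the same strand across it.

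The MUC1 promoter is shown because MUC1 is the mucin that passed the test, beside those of MUC13 and MUC16, the membrane mucins that lay above and below oeNC without passing it. Each sequence is the 250 bases before a RefSeq transcript start (GRCh38.p14), written 5′ to 3′ on the strand of the gene, and capitals mark matches to the motifs searched. RefSeq promoters matched 5 of the 10 mucins (MUC1, MUC2, MUC4, MUC13 and MUC16).
MUC1 (chr1:155192916-155193165, minus strand): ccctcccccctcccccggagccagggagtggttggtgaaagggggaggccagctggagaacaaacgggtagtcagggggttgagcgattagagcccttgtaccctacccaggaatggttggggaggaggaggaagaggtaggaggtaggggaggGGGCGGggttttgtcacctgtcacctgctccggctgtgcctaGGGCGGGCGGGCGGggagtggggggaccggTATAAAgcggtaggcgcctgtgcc
MUC13 (chr3:124934752-124935001, minus strand): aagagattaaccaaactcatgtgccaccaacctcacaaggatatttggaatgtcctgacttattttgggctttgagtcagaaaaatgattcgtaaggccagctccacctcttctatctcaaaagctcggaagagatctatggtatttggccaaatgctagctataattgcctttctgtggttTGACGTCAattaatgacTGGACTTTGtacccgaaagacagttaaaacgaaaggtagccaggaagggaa
MUC16 (chr19:9065752-9066001, minus strand): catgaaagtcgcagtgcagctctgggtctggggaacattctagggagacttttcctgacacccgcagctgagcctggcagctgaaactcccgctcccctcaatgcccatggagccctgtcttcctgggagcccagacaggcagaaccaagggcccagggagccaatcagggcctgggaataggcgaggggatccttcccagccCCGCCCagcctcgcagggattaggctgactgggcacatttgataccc
The 6 motifs were searched on both strands and are those of Sp factors, the core promoter, cyclic AMP response, the nuclear receptor HNF4A, forkhead factors and STAT factors, in the order in which they follow. The MUC1 window held GGGCGG at 4 places, some overlapping, a motif that 42.6% of the 35116 promoters in the RefSeq table held. It also held 1 TATAAA near its end, a motif in 10.7% of promoters, and 11 CpG, equal to the median of all promoters. The MUC13 window held 1 TGACGTCA, which 1.65% of promoters held, and 1 CAAAGTCCA read on the other strand, which 0.325% held, with 5 CpG. The MUC16 window held 1 GGGCGG read on the other strand and 6 CpG. The forkhead motif TGTTTAC, in 2.98% of promoters, was found in none of these 3 windows. The STAT motif TTCNNNGAA, in 6.57% of promoters, was also found in none of them. These are matches of letters, and none was tested for binding. The MUC13 window lies inside the longer gene that GENCODE annotates. RefSeq lists a second start for MUC16 and for MUC1. Both MUC16 windows, from chr19:9065752 and from chr19:9010410, lie far upstream of the GENCODE start at chr19:8981342. Which start these cells used is thus unknown, and the MUC16 windows may not be promoters of the RNA measured. The window of the second MUC1 start held the same motifs and 12 CpG, and that of the second MUC16 start held none of the 6 motifs and 6 CpG.

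MUC13, a membrane mucin of the gut epithelium with domains like epidermal growth factor (chr3:124905442-124953819, minus strand), stood at 7.03, 7.20 and 7.27 FPKM in oeNC and at 8.78, 7.91 and 11.0 FPKM in oeSTUB1. The oeNC values were almost equal, with a highest-to-lowest ratio of 1.03, and all oeSTUB1 values lay above them. The log2 fold change was 0.35 (95% interval 0.06 to 0.64, SE 0.126, adjusted p = 0.11). Leaving out oeSTUB1 replicate 2 gave 0.45 (adjusted p = 0.0144), which passed. The ratio of MUC1 to MUC13 within a library was 0.178, 0.142 and 0.163 in oeNC and 0.221, 0.249 and 0.193 in oeSTUB1.

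MUC16, the very large membrane mucin shed from many carcinomas and bound by mesothelin (chr19:8848844-8981342, minus strand), stood at 1.18, 1.59 and 1.67 FPKM in oeNC (1808, 2431 and 2707 fragments). In oeSTUB1 it stood at 0.600, 0.128 and 0.864 FPKM (915, 187 and 1306 fragments). All oeSTUB1 values lay below oeNC, and replicate 2 lay far below its own group. The log2 fold change was -1.54 (95% interval -2.66 to -0.43, SE 0.482), with an adjusted p = 0.0755 that missed the threshold. Leaving out oeSTUB1 replicate 2 made the difference smaller and the test pass (-0.93, adjusted p = 0.0154), and leaving out oeSTUB1 replicate 3 gave -1.97 (adjusted p = 0.0393). MUC16 was called lower in 4 of the 14 alternatives, over which its log2 fold change lay between -1.97 and -0.72 and its adjusted p between 0.0111 and 0.206.

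MUC20, a membrane mucin that associates with the receptor MET, stood at 0.358, 0.463 and 0.546 FPKM in oeNC (31, 40 and 50 fragments) and at 0.466, 0.218 and 0.470 FPKM in oeSTUB1 (40, 18 and 40 fragments). The groups overlapped, the log2 fold change was -0.23 (95% interval -0.87 to 0.41, adjusted p = 0.615). MUC4, the ERBB2-binding mucin that lies next to MUC20 on chromosome 3 (chr3:195746765-195812277 for MUC4 and chr3:195720882-195741123 for MUC20), had 2, 4 and 4 fragments in oeNC and 3, 10 and 2 in oeSTUB1. MUC20 overlaps MUC20-OT1 on the same strand, and the MUC20 locus has near-identical copies, so its values are uncertain.

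**Figure D3:**
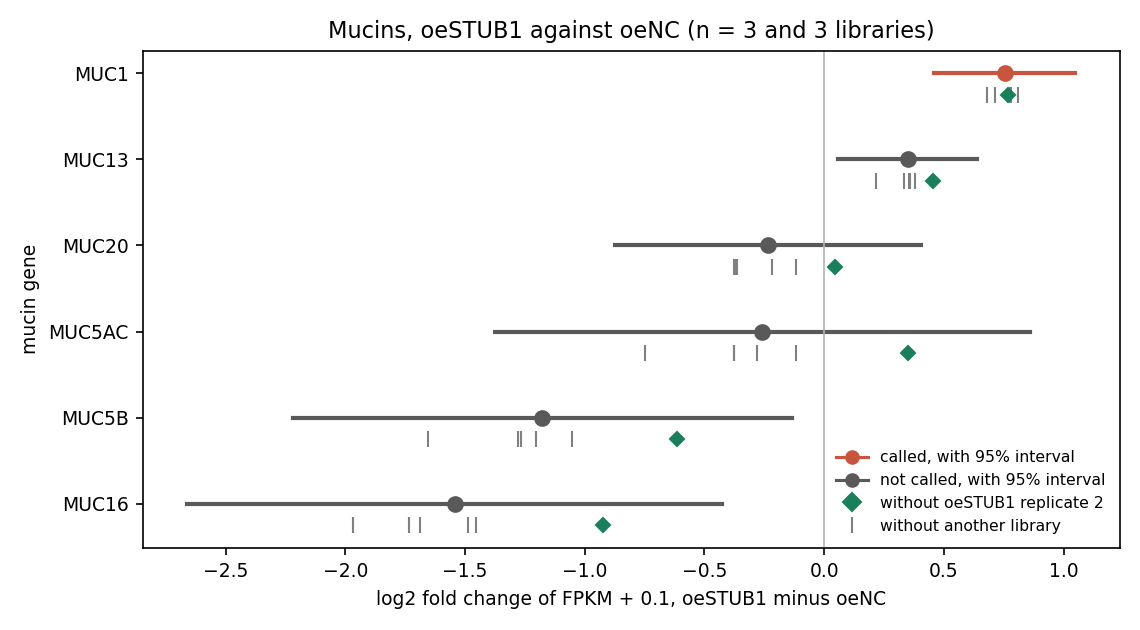
Log2 fold change of FPKM + 0.1 between oeSTUB1 and oeNC for the 6 tested mucins, with the 95% interval from limma (n = 3 and 3 libraries); below each, ticks give the value without each library in turn and the green diamond the value without oeSTUB1 replicate 2. MUC1 at 0.75 is called, MUC16 at -1.54 and MUC5B at -1.18 are not, and without oeSTUB1 replicate 2 every log2 fold change other than that of MUC1 and MUC13 moves towards 0 or past it.

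The spread between libraries set MUC5B, MUC5AC and MUC16 apart from MUC1. Among the 11375 genes that averaged 1 FPKM or more, the SD of log2 values within oeSTUB1 was 1.12 for MUC5AC, 1.09 for MUC16 and 1.05 for MUC5B, and only 19, 21 and 23 genes had a larger one. For MUC13 it was 0.24 and for MUC1 0.07, beside a median of 0.175 over these genes. In oeNC the same SDs were 0.26, 0.25 and 0.23 for MUC5AC, MUC16 and MUC5B, 0.03 for MUC13 and 0.14 for MUC1, with a median of 0.0697. The order of libraries, with replicate 1 lowest and 3 highest in oeNC and replicate 2 lowest and 3 highest in oeSTUB1, was shared by MUC13 and MUC20, and thus by every tested mucin other than MUC1.

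The oeSTUB1 replicate 2 library differed from its group by gene length as well. Its log2 difference from the mean of replicates 1 and 3 had a median of 0.49 over 610 genes under 1000 bases, 0.14 over 3580 genes of 2000 to 4000 bases and -0.68 over the 148 genes of 16000 bases or more, of which 95.3% were lower. MUC16 (44221 bases) stood at -1.85, MUC5AC at -1.83 and MUC5B at -1.69. Of the 148 long genes, 0 lay lower than MUC16. The 1 lower than MUC5AC was MUC16, and the 2 lower than MUC5B were MUC16 and MUC5AC. MUC1 (4076 bases) stood at -0.04 and MUC13 (2879 bases) at -0.31. The part of gene length in the mucin differences was examined only through a lowess correction of each library for length, chosen after the data were seen, under which 22.2% of all genes were called, with MUC16 (-1.27, adjusted p = 0.0111) and MUC5B (-1.01, adjusted p = 0.0452) lower and MUC1 (0.71, adjusted p = 0.00466) higher among them.

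**Figure D4:**
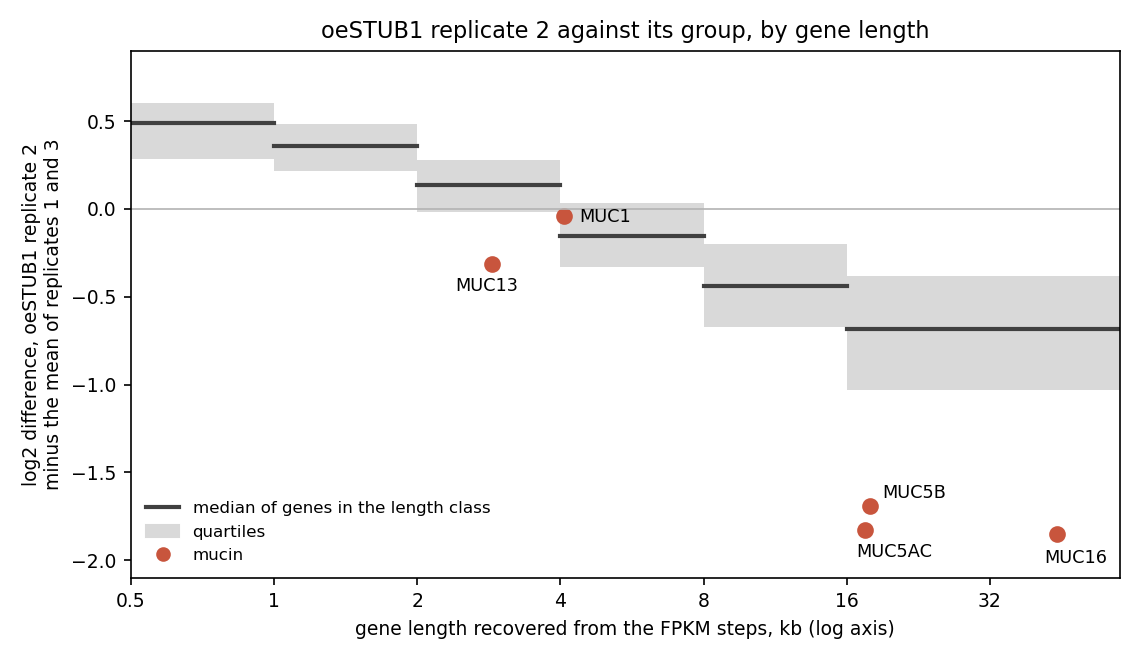
Log2 difference of oeSTUB1 replicate 2 from the mean of oeSTUB1 replicates 1 and 3 against gene length on a log axis, as median and quartiles of the genes in each length class, with the 5 mucins of at least 1 FPKM as points. The medians run from 0.49 under 1 kb to -0.68 from 16 kb, and MUC5B, MUC5AC and MUC16 lie between -1.69 and -1.85.

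By the smallest root mean square difference of centred log2(FPKM + 0.1) values over the 6 libraries, the gene most like MUC5B among 11374 was MUC16 (0.23), and the gene most like MUC16 was MUC5B. The next were LOC105373989 (0.27) and LOC107985208 (0.28) for MUC5B, and LOC107985208 (0.27) and FAT4 (0.28), an atypical cadherin, for MUC16. The median difference over all genes was 0.879 for MUC5B and 1.03 for MUC16. LOC105373989 stood at 5.54, 6.18 and 6.71 FPKM in oeNC and at 3.14, 1.49 and 3.55 FPKM in oeSTUB1. The recovered lengths were 537 bases for LOC107985208, 1294 bases for LOC105373989 and 17188 bases for FAT4. Each is the smallest length that gave whole fragments, so the true length can be greater. LOC107985208 was low, at 0.169 FPKM in oeSTUB1 replicate 2. The part of gene length in this likeness was not tested.

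Of 16 other mucins and mucin-like genes, 13 had a row and 6 were tested, of which 2 were called higher and 0 lower (3 higher and 1 lower at an unadjusted p under 0.05, and 2 and 0 by limma-voom). Over all genes 7.01% were higher and 6.59% lower. MCAM, a cell adhesion molecule also named MUC18, stood at 0.397, 0.256 and 0.464 FPKM in oeNC and rose to 1.36, 1.06 and 0.922 FPKM (log2 fold change 1.37, adjusted p = 0.00735). PRG4, the lubricant proteoglycan lubricin, rose from 0.0805 ± 0.0217 to 0.238 ± 0.0506 FPKM (SD, n = 3 and 3, log2 fold change 0.90, adjusted p = 0.0421). Its oeNC mean lay under the filter, so PRG4, 1 of the 2 genes called higher, was tested only through its oeSTUB1 values. MUC3A, an intestinal membrane mucin, had 0.425, 0.362 and 0.341 FPKM in oeNC and 0.307, 0.137 and 0.167 FPKM in oeSTUB1 (log2 fold change -0.69, adjusted p = 0.116). CD164, a sialomucin, had a mean of 61.1 ± 2.43 FPKM over oeNC and of 66.5 ± 0.766 over oeSTUB1, and neither it nor podocalyxin (PODXL) passed, with log2 fold changes of 0.12 and 0.40. Without oeSTUB1 replicate 2, 4 genes of the list were called, beside 26.8% of all genes in that fit, and without any other single library 1 was. The median log2 fold change of the tested genes was 0.26. The remaining 7 listed genes, among them MUC12 and MUC17, were below 0.1 FPKM in every library.

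Of the 24 tested enzymes that build mucin-type O-glycans, 5 were called higher and 2 lower (7 and 5 at an unadjusted p under 0.05) and 17 did not pass, beside 7.01% higher and 6.59% lower over all genes. Among the GALNT enzymes, which attach the first sugar, GALNT1 rose from 33.2 ± 0.889 to 47.1 ± 1.09 FPKM, a log2 fold change of 0.50 (adjusted p = 0.0031). GALNT10 rose by 0.81, GALNT13 by 0.96 and GALNT5 by 1.23 on the log2 scale, whereas GALNT6 fell by 1.09, from 1.95 ± 0.0884 to 0.876 ± 0.208 FPKM. GCNT3, the core enzyme that branches mucin glycans, rose from 14.7 ± 0.374 to 21.9 ± 2.19 FPKM (log2 fold change 0.57, adjusted p = 0.00667), and B3GNT3, which extends core chains, fell by 0.89. C1GALT1, the core galactosyltransferase, and its chaperone C1GALT1C1 had log2 fold changes of -0.07 (adjusted p = 0.606) and 0.27 (adjusted p = 0.14). The median over the 24 genes was 0.08.

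Genes of mucus secretion and packaging showed 0 higher and 1 lower of 16 tested (2 and 2 at an unadjusted p under 0.05, and 0 and 1 by limma-voom), while 13.6% of all genes were called. VAMP8, a vesicle fusion protein of mucin granules, fell from 14.1 ± 1.02 to 10.2 ± 1.54 FPKM (log2 fold change -0.48, adjusted p = 0.041). AGR2, the disulfide isomerase needed for mucin folding, stood at 109, 112 and 126 FPKM in oeNC and at 71.9, 99.9 and 119 FPKM in oeSTUB1, and the groups overlapped (log2 fold change -0.28, adjusted p = 0.314). The trefoil factors that accompany mucins in mucus were scarce, with TFF1 between 0.177 and 0.885 FPKM and TFF3 at 1 fragment in a single library, and TFF2 was not analysed here. Without oeSTUB1 replicate 2, 4 of these genes were called, in a fit that called 26.8% of all genes, and without any single oeNC library 0 were, beside 6.05% to 6.77% of all genes. The median log2 fold change was -0.20.

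Among the transcription factors known to act on mucin genes, 3 of 27 tested were higher and 5 lower, beside 7.01% and 6.59% of all genes. HNF4A, a nuclear receptor of liver and gut epithelium, fell by 1.05 on the log2 scale (10.8 ± 0.658 to 5.20 ± 0.808 FPKM, adjusted p = 0.00182). FOXA1, a pioneer factor of endodermal epithelia, fell by 0.51. CDX2, an intestinal homeobox factor, fell from 28, 58 and 63 fragments in oeNC to 2, 6 and 2 in oeSTUB1 (log2 fold change -1.71, adjusted p = 0.0082). Its oeSTUB1 mean of 0.0219 FPKM lay under the filter, so CDX2 was tested only through its oeNC values. SOX2 rose from 1.48 ± 0.207 to 3.53 ± 0.322 FPKM (log2 fold change 1.21, adjusted p = 0.00136), STAT3 rose by 0.59 and EHF by 0.77. SPDEF, the goblet cell factor that drives MUC5B and MUC5AC in airways, stood at 3.06, 3.26 and 4.42 FPKM in oeNC and at 2.43, 3.43 and 4.93 FPKM in oeSTUB1, and its difference on the log2 scale was -0.03 (adjusted p = 0.944). The median over the 27 factors was -0.22, and without 1 oeNC library 4 or 5 of them were called, beside 6.05% to 6.77% of all genes. Without oeSTUB1 replicate 2, 3 were higher and 8 lower, in a fit that called 26.8% of all genes.

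Of 19 tested partners and sheddases of the membrane mucins, 0 were higher and 6 lower (1 and 6 at an unadjusted p under 0.05, and 0 and 6 by limma-voom), beside 7.01% higher and 6.59% lower over all genes. Without oeSTUB1 replicate 2, 2 were higher and 6 lower, in a fit that called 26.8% of all genes. ERBB3 fell by 1.77 on the log2 scale, from 11.8, 13.8 and 13.7 FPKM to 3.45, 2.97 and 5.17 FPKM (adjusted p = 0.00113). ERBB2, the receptor that binds MUC4, fell from 16.5 ± 0.140 to 12.3 ± 0.366 FPKM (log2 fold change -0.42, adjusted p = 0.00844). The proteases ADAM17 and MMP14, which can shed MUC1, fell by 0.59 and 1.07 on the log2 scale, the kinase SRC by 0.58, and the apical scaffold gene SLC9A3R1 by 1.32. EGFR stood at 25.5, 27.2 and 28.3 FPKM in oeNC and at 31.8, 15.2 and 26.7 FPKM in oeSTUB1 (log2 fold change -0.20, adjusted p = 0.618). MSLN, the mesothelin that binds MUC16, was low at 0.489 ± 0.105 and 0.446 ± 0.0776 FPKM (log2 fold change -0.10, adjusted p = 0.771). The median over the 19 genes was -0.12.

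The genes that flank the mucin clusters showed 0 higher and 1 lower of 11 tested (0 and 2 at an unadjusted p under 0.05, and 0 and 1 by limma-voom), and 13.6% of all genes were called. Around the chromosome 11 cluster that holds MUC5B, AP2A2 and TOLLIP had log2 fold changes of 0.06 (adjusted p = 0.605) and 0.10 (adjusted p = 0.543). Beside MUC4 and MUC20, TNK2 had -0.24 (adjusted p = 0.141) and TFRC 0.15 (adjusted p = 0.451). THBS3, a neighbour of MUC1, fell from 5.60 ± 0.105 to 3.96 ± 0.286 FPKM (log2 fold change -0.49, adjusted p = 0.0131), while MUC1 rose. Without oeSTUB1 replicate 2, 3 neighbours were called, beside 26.8% of all genes, without any single oeNC library 0 were, and the median over the 11 genes was 0.09.

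**Figure D5:**
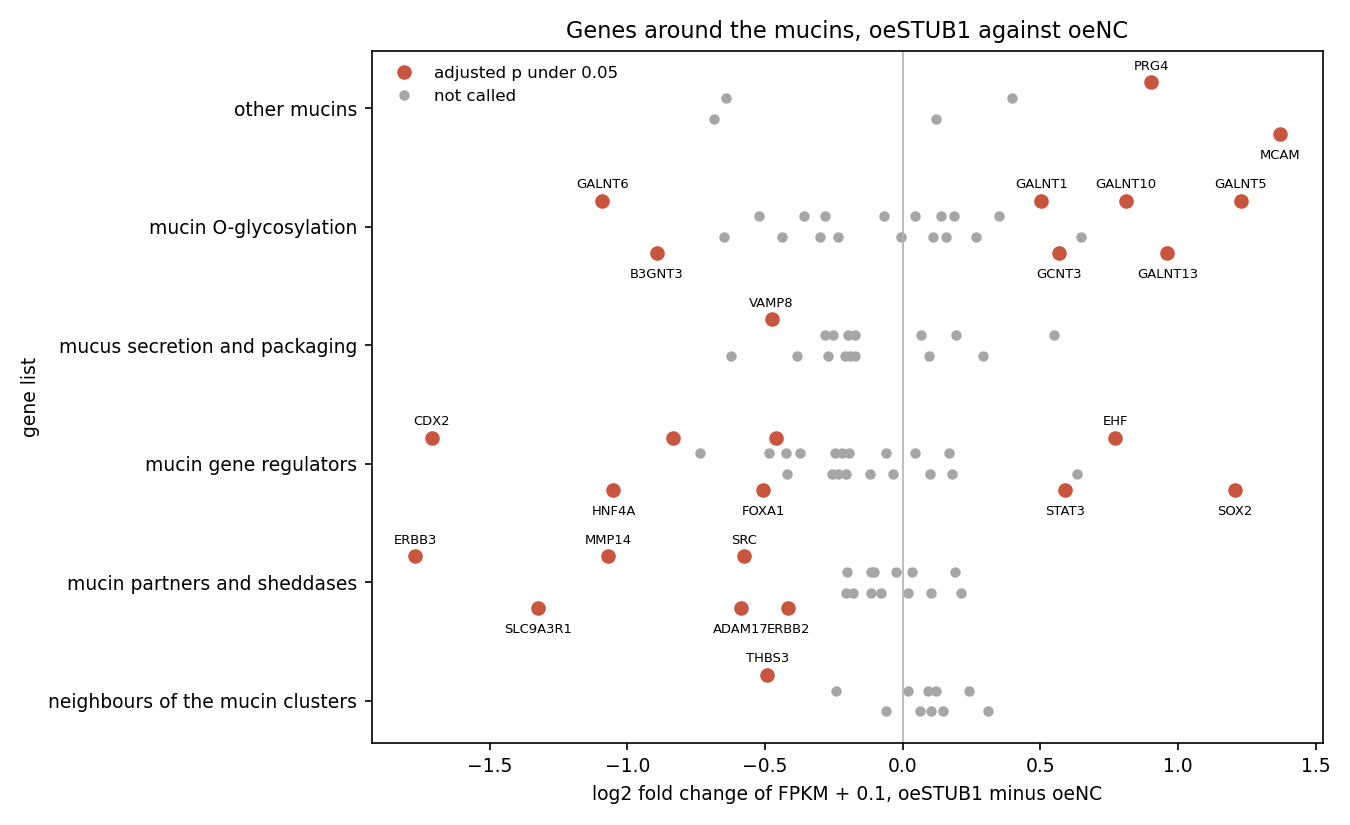
Log2 fold change of FPKM + 0.1 between oeSTUB1 and oeNC for each tested gene of the 6 lists around the mucins, with genes of adjusted p under 0.05 in red and those the text describes named. Called genes lie on both sides of 0 among the O-glycosylation enzymes (5 higher, 2 lower) and the regulators (3 higher, 5 lower). Among the partners and sheddases they lie below 0 (6 lower). Over all genes 7.01% are called higher and 6.59% lower. Without oeSTUB1 replicate 2 a further 2 partners are called higher, in a fit that calls 26.8% of all genes.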

How the data were processed

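The authors deposited one table of FPKM values for 23569 genes by symbol, with 1 column for each of the 6 libraries (3 oeNC and 3 oeSTUB1, matched to the labels by name). RNA was taken as total RNA and made into libraries with the VAHTS Universal V6 kit. The submitters' processing notes name fastp 0.20.1, HISAT2 2.1.0, HTSeq 0.11.2, R 3.2.0 and DESeq2 1.22.2, and the build GRCh38.p13. Their roles, the annotation and the strand setting are not given in the sources used here.

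Whole fragments were recovered from the steps of the FPKM values for all 23569 genes, and the deposited FPKM were returned by them within 4.9e-06. As the smallest length that gave whole numbers was kept, the true fragment number of a gene can be a multiple of the one given. limma 3.58.1 (R 4.3.3) was fitted to log2(FPKM + 0.1) of the 15353 genes whose mean reached 0.1 FPKM, as lmFit followed by eBayes with a trend, and its two-sided p-values were adjusted over all of them by Benjamini-Hochberg. This scale understates the change of low genes. A gene was called at an adjusted p under 0.05. The recovery and the test were checked on simulated data. Positions are those of GENCODE release 29. Means are given with the SD over 3 libraries.

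The 10 mucins and the gene lists were chosen with earlier results of these data known. The genes named were the 10 mucins, STUB1, genes of each list with an adjusted p under 0.05 or among the 3 largest changes in each direction, a fixed set of defining genes of the lists, and the 3 genes most like MUC5B and MUC16. A few genes of the lists are counted but not reported here by name. As alternatives, the pseudocount was set to 1 or 0.01, the filter was dropped or raised to 1 FPKM, libraries were scaled by median ratios, the replicate number was used as a block, limma-voom was run on the fragments, and each library was left out in turn. A lowess correction for gene length was chosen after seeing the data. Other steps used Python 3.11.15.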

Additional observations from a re-analysis of the deposited data

How the results depend on the processing

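MUC1 kept its direction and its call in all 14 alternatives, and the totals called among O-glycosylation enzymes and among partners and sheddases stayed within 1.5 times of those reported, although the partners had 2 higher in place of 0 without oeSTUB1 replicate 2. The number of mucins called was 2 with a pseudocount of 1 and 3 with the correction for gene length, in place of 1, and ran from 1 to 3 when a library was left out. MUC5AC reversed on leaving out oeSTUB1 replicate 2 (range over left-out libraries -0.75 to 0.35), and so did MUC20 (-0.38 to 0.045). The number of genes called ran from 927 to 4118 over the left-out libraries, highest without oeSTUB1 replicate 2, and was 3402 with the correction for gene length. Of the other mucins, 1 was called with a pseudocount of 1, 1 with a pseudocount of 0.01, 0 with a filter at a mean of 1 FPKM and 1 to 4 when a library was left out. For secretion and packaging the count was 0 without a filter, 3 with the length correction and 0 to 4 over the left-out libraries. Without oeSTUB1 replicate 1 the 1 gene called in that list was higher and 0 were lower, so VAMP8 was not called there. For the regulators it ran from 4 to 11 and for the neighbours from 0 to 3 over the left-out libraries, and the neighbours had 2 without a filter and 2 with the length correction. The causes of these shifts were not tested.

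Over the genes tested, deviations of same-numbered libraries from their group means correlated at -0.05, -0.05 and 0.06. This correlation cannot tell whether the libraries were made in pairs. With the replicate block, 1488 genes were called, MUC1 kept its call (adjusted p = 0.0251), 1 other mucin and 0 secretion genes were called, and no other list moved by over 1.5 times. In that fit the adjusted p was 0.0632 for MUC16 and 0.066 for MUC5B, so both still missed the threshold. MUC2, MUC4 and MUC6 had at most 20 fragments in any library and MUC20 at most 50, and the SD of log2 values within oeSTUB1 was 0.48 for MUC20 and over 1 for MUC5B, MUC5AC and MUC16.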

Other observations

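Values outside the comparisons described mucin pairs within a library. The FPKM of MUC5B was 35.5, 29.3 and 34.3 times that of MUC16 in oeNC and 39.8, 75.5 and 47.6 times in oeSTUB1. No test was run on this ratio, which was computed after the values of both genes were seen.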
